A study of Mus musculus with 6 samples.

Results

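The subunits of the oxidative phosphorylation machinery were followed in primary embryonic cardiomyocytes after knockdown of DNMT1. Members were chosen by symbol: the protein-coding genes of complexes I to V that the Ndufa, Ndufb, Ndufc, Ndufs, Ndufv, Uqcr, Cox4 to Cox8, Atp5 and mt- prefixes name, together with Sdha, Sdhb, Sdhc, Sdhd and Cyc1, assembly factors of the Ndufaf kind excluded. Of 43629 genes listed in the count files, 99 met the rule, 86 of the nuclear genome and 13 of the mitochondrial genome. Complex I held 45 members, complex II 4, complex III 10, complex IV 21 and complex V 19. The assignment to a complex follows the symbol, so that Ndufa4, first described in complex I and now known as a subunit of complex IV, stands with complex I here. By the same reading Cox7a2l, known as an assembly factor of supercomplexes, and Atp5s, known as a coupling factor, count as members.

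RNA-Seq was performed on cardiomyocytes of CD-1 mice from the ventricles of embryos at embryonic day 13.5, with the ventricles of a litter pooled. Cells were cultured for 48 h, transfected with 12 nM negative siRNA or with 12 nM DNMT1 siRNA, a pool of 4 siRNAs, and collected at 72 h. VCAM1-positive cells were then enriched with magnetic beads and their polyadenylated RNA was sequenced, in 3 samples per treatment. A treatment tag on the 3 DNMT1 siRNA samples names DNMT3a siRNA, whereas their titles name DNMT1. Dnmt1 had 3446, 2760 and 2878 normalized counts in the negative siRNA samples and 772, 786 and 666 in the DNMT1 siRNA samples. Dnmt3a had 4866, 5715 and 5779 against 6508, 6402 and 6365, so that the transcript that fell was the one in the titles. Sources used here do not say whether samples of a treatment came from separate litters, and the p values measure the spread between these samples only.

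Reads counted on genes numbered 27852412 to 35896018 per negative siRNA sample and 13739561 to 16186310 per DNMT1 siRNA sample. Nuclear members took 0.437 to 0.544% of them with negative siRNA and 0.473 to 0.546% with DNMT1 siRNA. Markers of cardiomyocytes were present in every sample, with 14 genes summing to 2608, 3283 and 2908 CPM (counts scaled to library size) with negative siRNA and to 6818, 6442 and 5384 CPM with DNMT1 siRNA. Fibroblast and mesenchyme markers, 9 genes led by the collagen gene Col1a1, were more abundant than the cardiomyocyte markers in all 6 samples, with 37640, 55930 and 38590 CPM against 29540, 27340 and 28250 CPM. The label cardiomyocyte thus covers samples in which collagen transcripts were also abundant. The paper cites earlier flow cytometry by which most magnetically sorted cells were cardiomyocytes, a share of cells that sums of transcripts do not measure. In such bulk samples fewer cells of a type and less RNA per cell cannot be told apart. Negative siRNA sample 2 stood apart from the other 2 of its group. Its smooth muscle markers summed to 7620 CPM, against 5724 and 4955 CPM, and its endothelial markers to 93.5 CPM, against 60.3 and 56.2 CPM. The sums of fibroblast, cardiomyocyte and macrophage markers were also highest in it, for macrophage markers by little (16.84 against 8.218 and 16.52 CPM). Those of epicardial and red blood cell markers were lowest. Single genes did not all follow the sums. Dcn, Tcf21 and Thy1 of the fibroblast list were lowest in this sample within its group, and Myh6 and Tnnt2 were not highest. Counts per gene differed more between it and samples 1 and 3 (chi-square per degree of freedom 61.7 and 55.6) than between samples 1 and 3 (29.7). For the members described, values without it are given where a call or a direction changed.

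Oxidative phosphorylation couples the oxidation of NADH and succinate to the synthesis of ATP in the inner mitochondrial membrane. Complexes I and II pass electrons to coenzyme Q, complex III passes them to cytochrome c, complex IV passes them to oxygen, and complex V, the ATP synthase, uses the proton gradient that complexes I, III and IV build. Every complex but II combines subunits of the nuclear and the mitochondrial genome. The adult heart depends on this pathway for most of its ATP, and during heart development several subunits of complex IV are replaced by forms restricted to heart and skeletal muscle.

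Of the 99 members, 84 passed the filter on low counts and were tested, all of them nuclear. Cox7b2 had 0 or 1 count per sample and Cox8c none, and both, known as testis forms of complex IV subunits, were not tested. The 13 mitochondrial members are mt-Nd1, mt-Nd2, mt-Nd3, mt-Nd4, mt-Nd4l, mt-Nd5 and mt-Nd6 of complex I, mt-Cytb of complex III, mt-Co1, mt-Co2 and mt-Co3 of complex IV, and mt-Atp6 and mt-Atp8 of complex V. All of them were listed at 0 in all 6 samples, and so were the 22 tRNA and 2 rRNA genes of the mitochondrial chromosome. No level and no fold change can be given for the mitochondrial members. Transcript windows of 75 bases were compared with the transcripts of all other annotated genes, allowing 2 mismatches, and 4 of the 13 mitochondrial members shared every window with a nuclear gene, whereas mt-Nd1 and mt-Atp8 shared none. Why these genes were listed at 0 was not tested.

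Most nuclear subunits lay close to their level in the negative siRNA samples. A member was called when the FDR of edgeR's quasi-likelihood test, adjusted by Benjamini-Hochberg over 15470 genes, was below 0.05 and the fold change above 1.5. By this rule 2 of 84 members were higher with DNMT1 siRNA (2.38%), against 4.26% of all genes tested, and 0 members were lower, against 2.23% of all genes. With an FDR below 0.05 and no limit on fold, 4 members were higher (4.76%, against 6.81% of all genes) and 1 was lower (1.19%, against 5.65%). An unadjusted p under 0.05 was found for 10 members in the higher direction (11.9%, against 14.9% of all genes) and for 3 in the lower direction (3.57%, against 14.3%). In each of these counts the share of members was near or below that of all genes tested. Without negative siRNA sample 2, and with a length offset, the share with an FDR below 0.05 in the higher direction was above it, as given below.

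**Figure D1:**
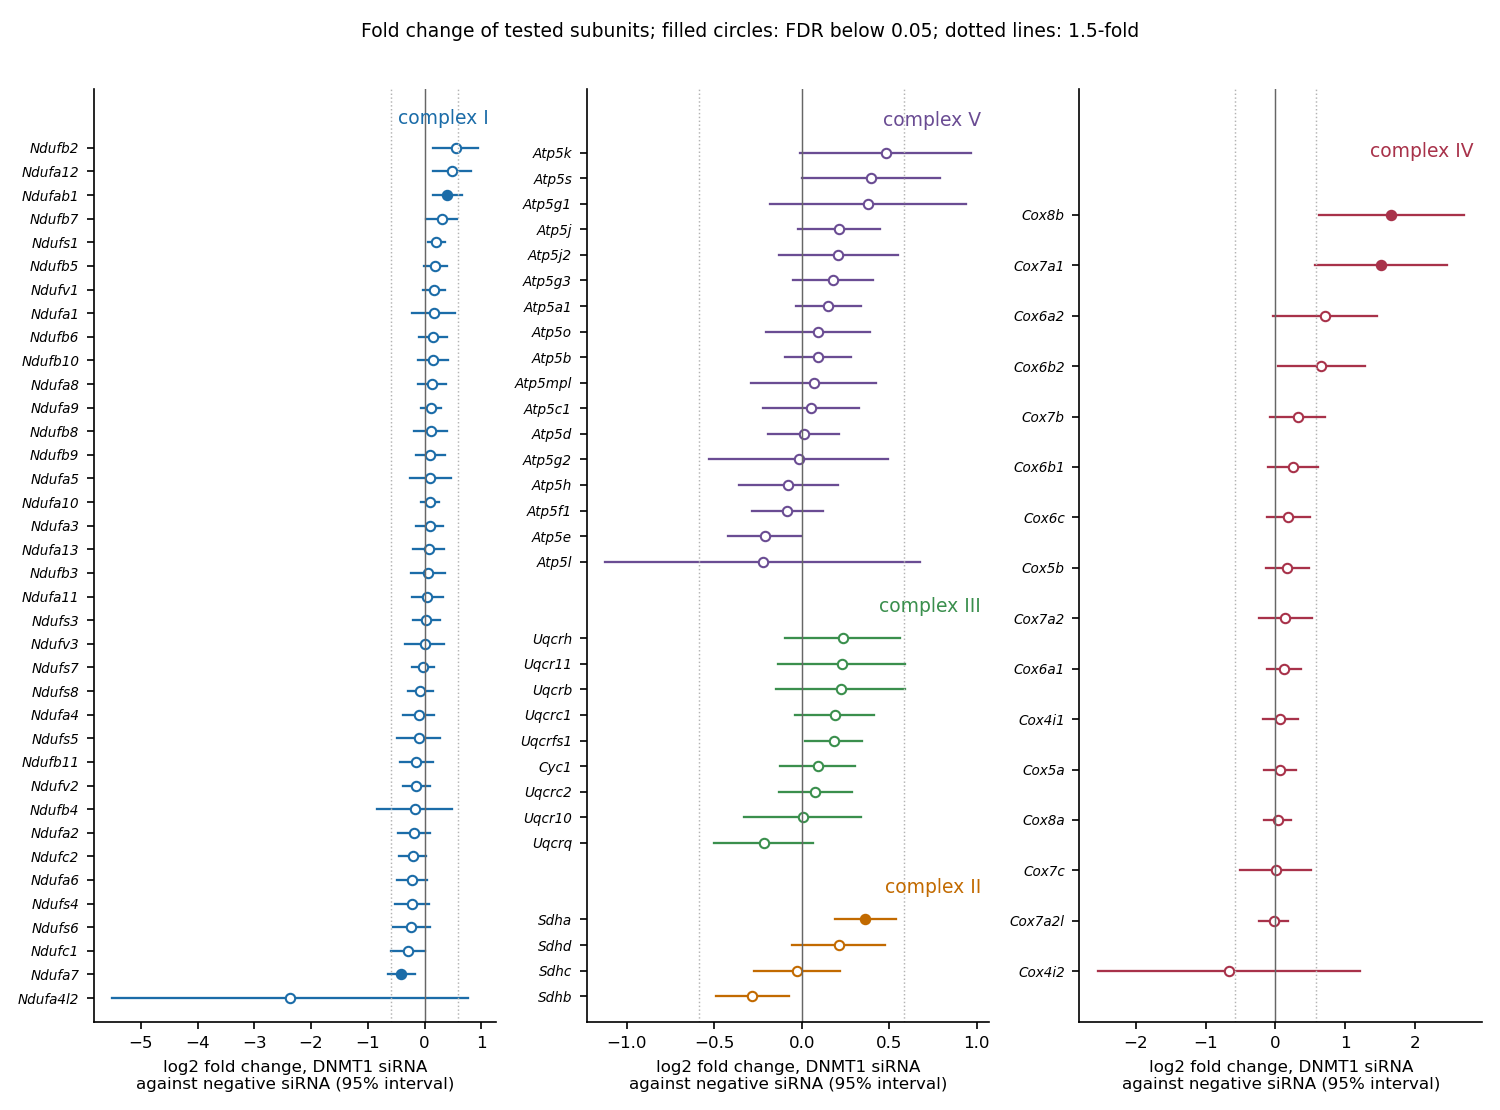
Log2 fold change with its 95% interval (x axes, ranges differ between panels) of tested subunits (rows), grouped by complex, with filled circles for an FDR below 0.05 and dotted lines at a fold change of 1.5. The 2 points beyond the right dotted line with filled circles are Cox8b and Cox7a1 of complex IV, and the wide interval of Ndufa4l2 reflects 917.5 normalized counts in 1 negative siRNA sample.

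The fold changes were narrowly spread. Log2 fold changes of 70 members (83.3%) lay within 1.25-fold in either direction, against 68.5% of all genes tested. For 65 of 84 members the whole 95% interval lay inside a fold change of 1.5, a count that was not taken over all genes. Positive log2 fold changes were found for 58 members (69.05%, against 49.33% of all genes) and negative ones for 26. The median was 0.09, against 0.00 over all genes (-0.00491). Between samples of a treatment the same median over members varied by an SD of 0.170, which is more than the shift. By complex, the median log2 fold change was 0.05 for complex I (38 tested), 0.09 for complex II (4), 0.18 for complex III (9), 0.16 for complex IV (16) and 0.09 for complex V (17).

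Subunits rose and fell together between samples of the same treatment. Among the 3 negative siRNA samples, 69 of the 84 tested members (82.1%) had their highest normalized count in sample 2, against 38.1% of all genes tested, and 69 had their lowest in sample 3 (82.1%, against 31.4% of all genes). Among the DNMT1 siRNA samples, 61 members (72.6%) were highest in sample 1 and 62 (73.8%) lowest in sample 3, against 33.1% and 34.9% of all genes. Summed over the 86 nuclear members, normalized counts were 105200, 118200 and 94730 with negative siRNA and 118500, 112800 and 106300 with DNMT1 siRNA. The ranges of the treatments overlapped for this sum and for the sum of each of the 5 complexes. Except in complex I, the overlap came from negative siRNA sample 2 alone. With that sample set aside, the sum over all nuclear members was at most 105200 with negative siRNA and at least 106300 with DNMT1 siRNA. In complex I the overlap remained, with 27290 in negative siRNA sample 1 and 26410 in DNMT1 siRNA sample 3. Groups that do not overlap at all were found for 13 members in the higher direction (15.5%, against 18.3% of all genes tested) and for 4 in the lower direction (4.76%, against 17.7%).

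**Figure D2:**
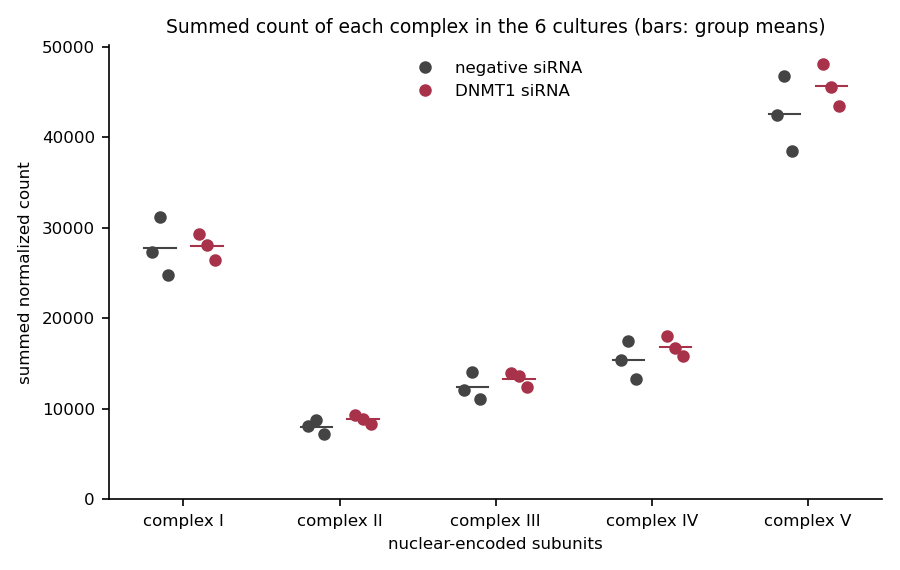
Summed normalized count of the nuclear subunits of each complex (y axis, from 0) in the 3 negative siRNA and 3 DNMT1 siRNA samples (points), with group means as bars. Points of both treatments overlap in all 5 complexes, and the highest negative siRNA point of each complex is sample 2. Without that point only those of complex I overlap.

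Complex IV held both of the called members. They were Cox7a1 and Cox8b, the heart and skeletal muscle forms of subunits VIIa and VIII, whose general counterparts are Cox7a2 and Cox8a. DNA methylation was not analysed here, and the promoters of these 4 genes are shown because DNMT1 copies methylation at CG dinucleotides and because the promoters of the muscle forms and of the general forms differ in how many they hold. Each window runs from 250 bases before to 50 bases after the annotated start (RefSeq, GRCm38.p6) and reads 5′ to 3′ on the strand of the gene, with CG dinucleotides in capitals. The windows lie at chr7:30183921-30184220 on the plus strand for Cox7a1 and, on the minus strand, at chr7:140900397-140900696 for Cox8b, chr9:79759804-79760103 for Cox7a2 and chr19:7217567-7217866 for Cox8a.
Cox7a1: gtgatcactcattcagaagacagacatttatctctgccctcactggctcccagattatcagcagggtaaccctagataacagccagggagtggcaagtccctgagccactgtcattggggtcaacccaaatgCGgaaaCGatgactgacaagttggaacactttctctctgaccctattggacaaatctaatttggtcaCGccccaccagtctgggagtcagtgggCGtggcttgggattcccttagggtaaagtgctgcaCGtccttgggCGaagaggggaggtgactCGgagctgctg
Cox8b: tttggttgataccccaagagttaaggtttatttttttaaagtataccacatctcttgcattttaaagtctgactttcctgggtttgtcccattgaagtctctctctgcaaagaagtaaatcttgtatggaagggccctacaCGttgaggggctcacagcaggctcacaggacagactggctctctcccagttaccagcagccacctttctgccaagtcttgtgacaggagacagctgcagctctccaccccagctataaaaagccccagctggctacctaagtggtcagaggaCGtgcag
Cox7a2: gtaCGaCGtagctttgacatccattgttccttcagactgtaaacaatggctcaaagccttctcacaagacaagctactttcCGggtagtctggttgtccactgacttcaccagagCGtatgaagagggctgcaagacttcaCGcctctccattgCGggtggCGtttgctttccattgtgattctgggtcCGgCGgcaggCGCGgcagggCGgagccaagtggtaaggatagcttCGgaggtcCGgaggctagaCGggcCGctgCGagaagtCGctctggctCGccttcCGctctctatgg
Cox8a: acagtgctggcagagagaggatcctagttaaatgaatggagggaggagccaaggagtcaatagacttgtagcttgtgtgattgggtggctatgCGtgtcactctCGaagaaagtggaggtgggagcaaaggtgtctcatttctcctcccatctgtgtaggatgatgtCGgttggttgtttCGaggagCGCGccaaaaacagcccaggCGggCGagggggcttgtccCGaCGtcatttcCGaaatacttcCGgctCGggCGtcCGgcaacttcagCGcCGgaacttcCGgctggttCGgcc
The window of Cox7a1 held 7 CG dinucleotides and that of Cox8b held 2. Windows of the general forms held more, 20 in Cox7a2 and 19 in Cox8a.

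Cox7a1 lies at chr7:30184144-30186078 on the plus strand (GRCm38). Its normalized counts were 25.7, 55.1 and 28.8 with negative siRNA and 164.9, 74.3 and 72.0 with DNMT1 siRNA. All DNMT1 siRNA samples were above all negative siRNA samples, and sample 1 of DNMT1 siRNA was the highest. The log2 fold change was 1.51 ± 0.41 (SE, edgeR adjusted p = 0.048). Without that sample it was 0.98, which no longer passed (edgeR adjusted p = 0.18).

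Cox8b lies at chr7:140898945-140900446 on the minus strand. It had 16.3, 39.3 and 9.33 normalized counts with negative siRNA and 80.5, 67.1 and 58.9 with DNMT1 siRNA, again with no overlap. The log2 fold change was 1.66 ± 0.45 (SE, edgeR adjusted p = 0.049). Both genes rest on few reads, 37 to 80 raw counts per negative siRNA sample for Cox7a1 and 12 to 57 for Cox8b. Both calls were near the limit and each was lost when any sample but negative siRNA sample 2 was left out, with adjusted p values up to 0.18 for Cox7a1 and 0.16 for Cox8b, while the log2 fold changes stayed between 0.98 and 1.95 and between 1.32 and 2.38. Without negative siRNA sample 2 both passed by more (adjusted p = 0.010 and 0.0015). Neither gene shared a transcript window or an exon with another annotated gene.

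The remaining restricted forms did not pass the test. Cox6a2, the muscle form of subunit VIa, had 56.0, 88.2 and 150.9 normalized counts against 162.3, 182.2 and 135.7 (log2 fold change 0.72 ± 0.33, edgeR adjusted p = 0.19). Cox6b2, known as a testis form of subunit VIb, had 102.7, 240.6 and 176.5 against 291.0, 244.9 and 282.9 (log2 fold change 0.66 ± 0.27, adjusted p = 0.15). The groups overlapped for Cox6a2 and, by a small margin, did not for Cox6b2. Cox6b2 passed without negative siRNA sample 2 (log2 fold change 0.98, adjusted p = 0.016), and Cox6a2 passed without negative siRNA sample 3 (1.16, adjusted p = 0.028). Cox4i2, a form of subunit IV linked to low oxygen, had 7.59, 67.6 and 13.2 counts against 28.2, 8.75 and 18.0, with sample 2 of negative siRNA far above the rest. Its log2 fold change was -0.67 ± 0.82 (adjusted p = 0.63) and became 0.85 without that sample.

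General forms of complex IV differed little between treatments. Cox4i1, the main form of subunit IV, had 2904, 3439 and 2684 normalized counts against 3461, 3207 and 2823. Cox5a, a subunit next to Cox4i1 early in assembly, had 1338, 1384 and 1142 against 1468, 1361 and 1223. Log2 fold changes of the general forms Cox4i1, Cox6a1, Cox6b1, Cox7a2 and Cox8a ran from 0.04 to 0.25, and all of their groups overlapped. The 95% interval was widest for Cox7a2, from -0.24 to 0.53, and narrowest for Cox8a, from -0.16 to 0.23.

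Ratios of the restricted to the general form within a sample do not depend on library size, except through an added count. That addition weighs most where counts are low. They were compared for 6 pairs on normalized counts per kb of transcript, with 1 count added, by an exact two-sided permutation test whose smallest p with 3 samples against 3 is 0.1. Cox7a1 made up 5.55, 10.8 and 9.25% of the sum of Cox7a1 and Cox7a2 with negative siRNA and 26.6, 15.2 and 14.3% with DNMT1 siRNA. The log2 ratio differed by 1.27 (exact permutation p = 0.1), with no overlap. Cox8b made up 0.853, 1.83 and 0.547% of the sum of Cox8b and Cox8a with negative siRNA and 3.97, 3.30 and 2.95% with DNMT1 siRNA, a difference in log2 ratio of 1.80 (exact permutation p = 0.1), again with no overlap. The general form thus remained the more abundant one in every sample for both pairs. For Cox6a2 against Cox6a1 the difference was 0.67 and for Cox6b2 against Cox6b1 it was 0.46 (exact permutation p = 0.4 for each), with overlapping samples. For Cox4i2 against Cox4i1 it was -0.29 (exact permutation p = 0.9).

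**Figure D3:**
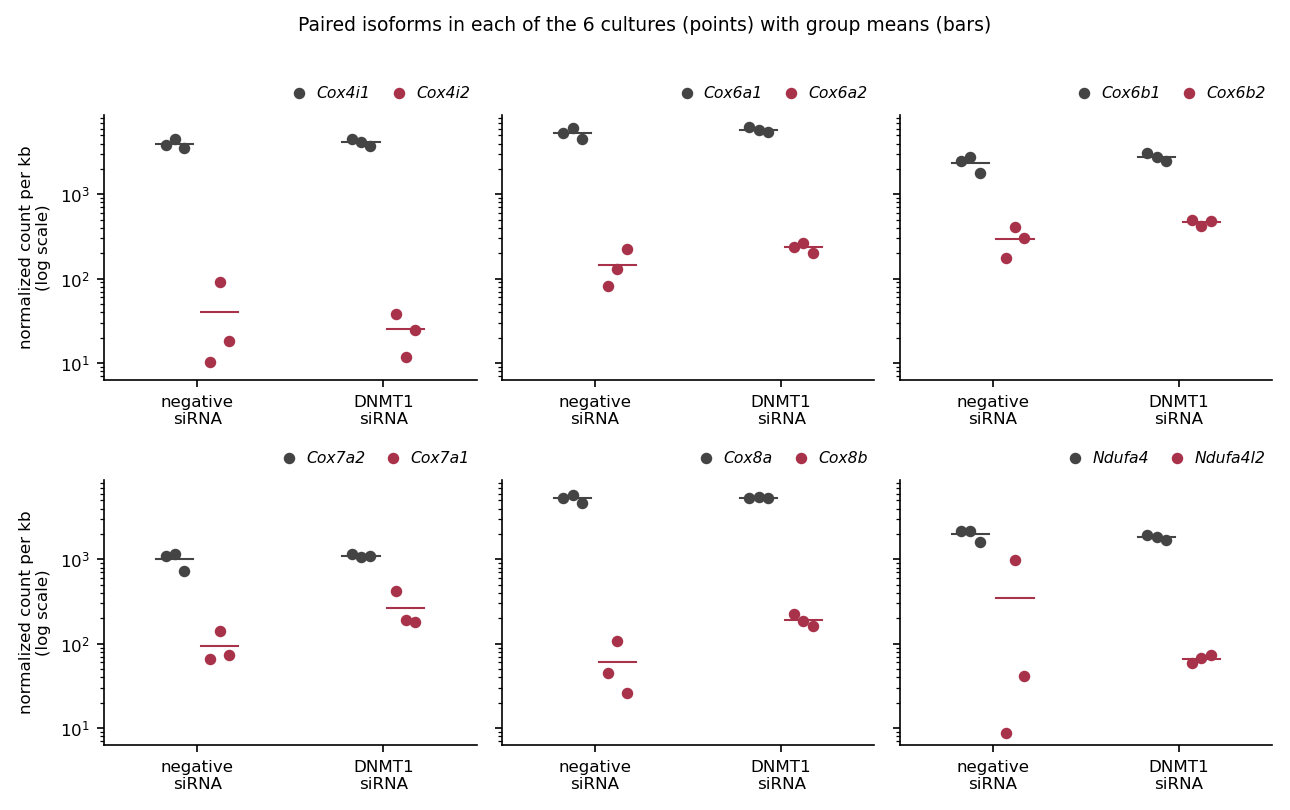
Normalized count per kb of transcript (y axis, log scale) of the general form (grey) and the restricted form (red) of 6 subunit pairs in each sample, with group means as bars. Cox7a1 and Cox8b lie higher in all 3 DNMT1 siRNA samples than in all 3 negative siRNA samples, while their general partners Cox7a2 and Cox8a overlap, and Ndufa4l2 has 1 high negative siRNA sample.

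Cardiomyocyte markers moved in the same direction as the muscle forms. Of 14 such markers, 10 were called higher and 0 lower, with a median log2 fold change of 1.09, and they summed to 2608 to 3283 CPM with negative siRNA and 5384 to 6818 CPM with DNMT1 siRNA. Myh6, the alpha myosin heavy chain, had a log2 fold change of 1.41 ± 0.18, and Actc1, cardiac actin, one of 1.54 ± 0.14. The sort marker Vcam1 had -0.26 ± 0.11. Of 9 fibroblast and mesenchyme markers, 3 were called lower (Col1a1, Col1a2 and Dcn), of 6 endothelial markers 2 were called higher (Kdr and Emcn), and no smooth muscle (4), epicardial (4), macrophage (4) or red blood cell (1 tested of 5) marker was called in either direction. Thy1 of the fibroblast list and Tek of the endothelial list had an FDR below 0.05 in the other direction (0.36 and -0.35), and Acta2, smooth muscle actin, passed the FDR limit in the lower direction (-0.51 ± 0.14, adjusted p = 0.046). Negative siRNA sample 2 weighed on several of these markers. Col1a1 had 428200, 653700 and 432400 normalized counts with negative siRNA against 324500, 312300 and 325700 with DNMT1 siRNA. Cdh5, an endothelial marker that was not called, had 215.9, 552.2 and 261.3 against 653.0, 631.2 and 536.4. Marker calls without that sample are not given here. The part of the markers in the rise of Cox7a1 and Cox8b was not tested.

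Complex I, the NADH dehydrogenase and the largest of the complexes, had 38 nuclear members, all tested, with 0 called. Ndufa7, an accessory subunit, had 905.7, 961.7 and 748.9 normalized counts with negative siRNA and 659.7, 660.3 and 652.6 with DNMT1 siRNA, with no overlap. It fell by 0.41 ± 0.10 on the log2 scale (edgeR adjusted p = 0.037). Ndufab1, the mitochondrial acyl carrier protein, which also serves lipoic acid synthesis and iron-sulfur cluster assembly, had 279.5, 236.5 and 279.9 against 348.6, 362.9 and 340.2, a rise of 0.40 ± 0.11 (adjusted p = 0.048). These 2 passed the FDR limit in opposite directions, both with a fold change under 1.5. The largest positive value was that of Ndufb2, an accessory subunit, with 86.4, 93.8 and 83.2 against 152.9, 107.9 and 124.3, and its log2 fold change of 0.55 ± 0.17 did not pass (adjusted p = 0.074).

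Core subunits of complex I that bind NADH or carry electrons lay within narrow limits. Ndufs1, which carries iron-sulfur clusters of the electron path, had 1574, 1542 and 1470 normalized counts against 1805, 1708 and 1789, a log2 fold change of 0.21 ± 0.07 (edgeR adjusted p = 0.073). Ndufv1, which binds NADH and the flavin, had 1485, 1754 and 1542 against 1845, 1860 and 1685 (0.17 ± 0.08, adjusted p = 0.22), and passed without negative siRNA sample 2 (0.25, adjusted p = 0.042). Groups did not overlap for Ndufs1 and overlapped for Ndufv1. In all, 7 of 38 members of complex I were higher and 2 lower with no overlap between groups, Ndufc1 being the second of the lower ones. Over all genes tested the shares were 18.3% and 17.7%. The 7 are near the first share and the 2 below the second.

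Accessory and supernumerary subunits, which surround the core and are needed for assembly or stability, made up the rest of complex I. Signs were mixed even among those of the arm that oxidizes NADH. Ndufa12 of that arm had 101.0, 113.7 and 89.4 normalized counts against 139.5, 141.4 and 145.6, with no overlap (log2 fold change 0.49 ± 0.15, edgeR adjusted p = 0.068). Ndufs4, Ndufs6 and the core subunit Ndufv2 of the same arm had -0.23 ± 0.13, -0.24 ± 0.14 and -0.14 ± 0.10, with overlapping groups. In the membrane arm, Ndufb7 had 710.8, 721.1 and 542.8 against 874.3, 798.8 and 760.5 and Ndufb5 had 647.7, 708.0 and 601.9 against 789.8, 724.4 and 718.0, both with no overlap and neither past the limit (adjusted p = 0.14 and 0.20). Ndufa10 had 1367, 1458 and 1327 against 1474, 1497 and 1472 and shows how small such a difference can be, at 0.10 ± 0.07. The core subunits Ndufs7 and Ndufs8, which carry the last iron-sulfur clusters before coenzyme Q, had -0.02 ± 0.09 and -0.08 ± 0.09.

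Ndufa4l2, a paralog of Ndufa4 known to be induced by low oxygen, had the lowest log2 fold change of all members and the widest spread. Its normalized counts were 8.17, 917.5 and 38.9 with negative siRNA and 55.0, 62.7 and 68.7 with DNMT1 siRNA. Sample 2 of negative siRNA was far above the other 5. The log2 fold change of -2.37 ± 1.37 (edgeR adjusted p = 0.29) became 1.46 without it (adjusted p = 0.086). Cox4i2 was high in the same sample, and so was the smooth muscle marker Myh11, with 119.6, 680.4 and 178.9 counts against 132.8, 99.1 and 114.5. Some markers of other cell types were also highest there among the negative siRNA samples, such as Pecam1 (135.4, 313.7 and 114.3) and Myh7 (945.4, 3496 and 1267). Others, such as Myh6 and Dcn, were not. Epicardial markers were summed lowest in it. The part of any cell type in the Ndufa4l2 value was not tested. Ndufa4 had 1317, 1310 and 988.4 against 1203, 1127 and 1042, and the log2 ratio of Ndufa4l2 to Ndufa4 differed by -0.05 (exact permutation p = 1.0).

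Complex II oxidizes succinate and is the only complex that also serves the tricarboxylic acid cycle. Its flavoprotein Sdha had 3270, 3244 and 2982 normalized counts with negative siRNA and 4350, 4096 and 3765 with DNMT1 siRNA, with no overlap. It rose by 0.36 ± 0.08 on the log2 scale (edgeR adjusted p = 0.021), a fold of 1.29. Its partner Sdhb, the iron-sulfur subunit, pointed the other way, with 1444, 1716 and 1412 against 1309, 1192 and 1259, again with no overlap. Sdhb had a log2 fold change of -0.28 ± 0.09 and did not pass (adjusted p = 0.082). The membrane anchors Sdhc and Sdhd had -0.03 ± 0.11 and 0.21 ± 0.12.

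Complex III had 9 nuclear members and 0 with an FDR below 0.05. Without negative siRNA sample 2, Uqcrc1 (log2 fold change 0.29, edgeR adjusted p = 0.027), Uqcrfs1 (0.23, adjusted p = 0.045) and Uqcrh (0.39, adjusted p = 0.044) passed the FDR limit. Of the 9 members, 8 had a positive log2 fold change, from 0.0053 for Uqcr10 to 0.23 for Uqcrh, the hinge protein. Uqcrfs1, the Rieske iron-sulfur protein, was the only one with groups that did not overlap, with 1834, 1977 and 1775 normalized counts against 2164, 2175 and 2002 (0.18 ± 0.07, edgeR adjusted p = 0.13). Uqcrc1, a core protein, had 2440, 2928 and 2360 against 3087, 3038 and 2685 (0.19 ± 0.10, adjusted p = 0.24). Cyc1, cytochrome c1, had 2025, 2364 and 1913 against 2365, 2270 and 2080 (0.09 ± 0.09, adjusted p = 0.55). Uqcrq, a small subunit, was the lowest at -0.22 ± 0.12.

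Complex V had 17 nuclear members and 0 with an FDR below 0.05. Atp5b and Atp5a1 encode the beta and alpha subunits of the catalytic head. Atp5b had 15560, 16870 and 14390 normalized counts against 17530, 16700 and 15720, a log2 fold change of 0.09 ± 0.08 (edgeR adjusted p = 0.49). Atp5a1 had 11980, 13180 and 11100 against 13910, 13370 and 12970 (0.15 ± 0.08, adjusted p = 0.26), and passed the FDR limit without negative siRNA sample 2 (0.22, adjusted p = 0.047). The samples of both treatments overlapped for both genes. The highest log2 fold change in the complex was that of Atp5k, a small membrane subunit, with 179.2, 225.4 and 133.0 against 291.0, 256.5 and 201.2 (0.48 ± 0.21, adjusted p = 0.18), and it passed both limits without negative siRNA sample 2 (0.67, adjusted p = 0.039). Among the remaining subunits, those of the stalk did not move as 1 group. The gamma and delta subunits Atp5c1 and Atp5d had 0.05 ± 0.12 and 0.01 ± 0.09, while the epsilon subunit Atp5e was the only member of the complex that was lower with no overlap, at 754.5, 849.3 and 696.0 against 670.5, 642.8 and 672.2 (-0.21 ± 0.09, adjusted p = 0.17). Atp5s was the only one that was higher with no overlap, at 80.5, 88.2 and 70.0 against 97.9, 97.7 and 119.4 (0.39 ± 0.17, adjusted p = 0.17). The genes of the membrane ring, Atp5g1, Atp5g2 and Atp5g3, encode the same mature protein and had 0.38 ± 0.24, -0.02 ± 0.22 and 0.18 ± 0.10. The lowest was Atp5l, with 18.7, 12.4 and 14.8 against 18.8, 7.29 and 13.1 (-0.22 ± 0.39).

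Without negative siRNA sample 2, 13 of 84 members had an FDR below 0.05 in the higher direction. This share was above that of all genes tested without it (9.48%), unlike with every sample included. Called higher were then 4 members, Cox7a1, Cox8b, Cox6b2 and Atp5k, a share not above that of all genes (5.42%). The median log2 fold change of the members was then 0.19, whereas without negative siRNA sample 3 it was 0.02. Negative siRNA samples 2 and 3 were those with the highest and the lowest counts of most members. The count of small rises therefore depended on which negative siRNA samples were used. Without any 1 of the DNMT1 siRNA samples 0 members had an FDR below 0.05 in either direction, Sdha, Ndufab1 and Ndufa7 included. By that limit 288 to 359 of all genes were then higher (1.77 to 2.21%) and 142 to 205 lower (0.873 to 1.26%). The 0 of 84 members is near these small shares. Ndufab1 also missed the limit without negative siRNA sample 2 or 3 (edgeR adjusted p = 0.059 and 0.054) and Ndufa7 without sample 1 (0.065), whereas Sdha passed without each negative siRNA sample.

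Levels per kb of transcript spanned a wide range among the 84 tested members. Atp5b was the most abundant, with 8146 normalized counts per kb with negative siRNA and 8690 with DNMT1 siRNA. After it came Cox6a1, Cox8a, Atp5a1 and Atp5g3, with 5339, 5279, 4891 and 4560 per kb with negative siRNA. Gaps between neighbours in the order of these 4 were smaller than the SD between samples, whereas Atp5b stood above them by more than that. Ndufa4 led the members with complex I symbols (1976 per kb) and, with negative siRNA, Sdhb led those of complex II (1335) and Uqcr10 those of complex III (1636). With DNMT1 siRNA the order changed, Sdha (1404 per kb) standing above Sdhb (1098) and Uqcrc1 (1777) above Uqcr10 (1641). Subunits of the same complex thus came from transcripts of very different abundance. At the low end stood Atp5g1 with 16.5, Ndufb2 with 20.1 and Atp5l with 28.1 per kb. The transcripts used for the length of Atp5g1 and Ndufb2, the longest principal ones, measured 4715 and 4371 bases, which lowers their value per kb.

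**Figure D4:**
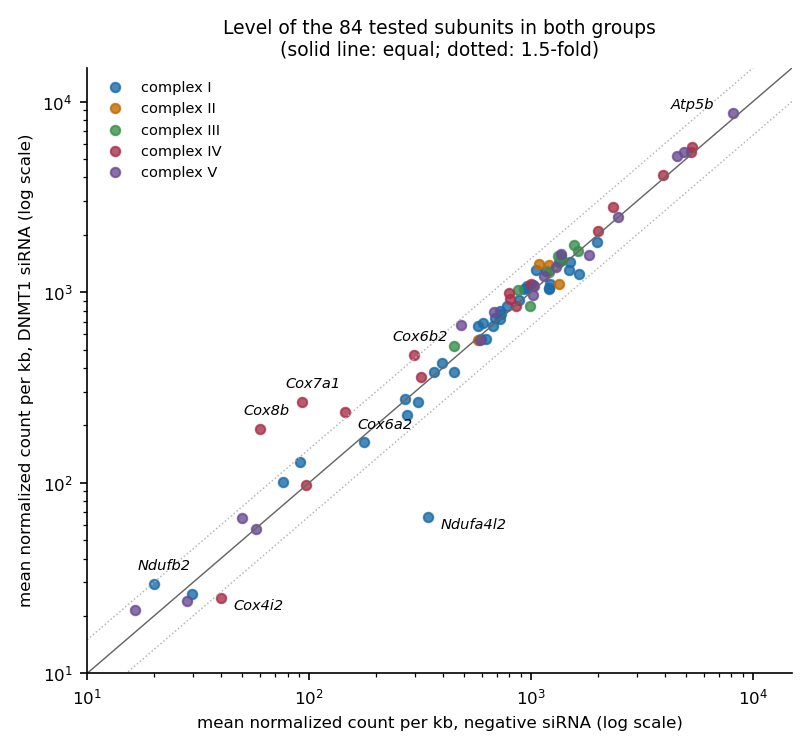
Mean normalized count per kb of the 84 tested subunits with negative siRNA (x axis) and with DNMT1 siRNA (y axis), both on log scales, coloured by complex, with a solid line for equal levels and dotted lines for 1.5-fold. Most points follow the solid line from 16.5 to 8146 counts per kb, Cox8b and Cox7a1 lie above it and Ndufa4l2 below.

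Many subunit genes have processed copies elsewhere in the genome, and this bears on how firmly a level can be stated. Of the 84 tested members, 39 shared no transcript window of 75 bases with another annotated gene. At least 50% of the windows were shared in 7 members (8.33%), against 4.47% of 13276 genes examined: Cox7c, Uqcrb, Atp5o, Atp5h, Ndufs3, Atp5l and Atp5g2. Their median level with negative siRNA was 270.0 counts per kb, against 988.1 for the members that shared none. The levels of these 7 are uncertain, as reads of shared sequence may be set aside or divided by the mapping. Their median log2 fold change was 0.01, against 0.09 for members with no shared window. Exons overlapped those of another gene in 30 tested members (35.7%), against 35.4% of 15392 genes, and by 47.9% of exon length at most, in Atp5o.

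Most promoter windows of the subunits held more CG dinucleotides than the median window of all genes. Windows of all genes include genes that were not tested, and the share over tested genes alone was not taken. RefSeq windows of 300 bases were matched by symbol for 67 of the 86 nuclear members (72 windows). The median was 19 CG dinucleotides per window, against 7 over 32851 windows of all genes. No more than 10 were found in 6 member windows (8.33%), against 58.6% of all windows, and these belonged to Cox8b (2), Cox7b (5), Cox7a1 (7), Ndufc2 (8), Cox6b2 (10) and Cox7b2 (10). Cox7a1 and Cox8b were called, Cox6b2 was not and Cox7b2 was not tested. Ndufc2 had a log2 fold change of -0.21 and Cox7b one of 0.32, neither of which passed. Cox8b, Cox7a1 and Cox6b2 had positive values as well (1.66, 1.51 and 0.66), so that Ndufc2 was the only negative one. A link of CG content with the fold change was not tested.

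**Figure D5:**
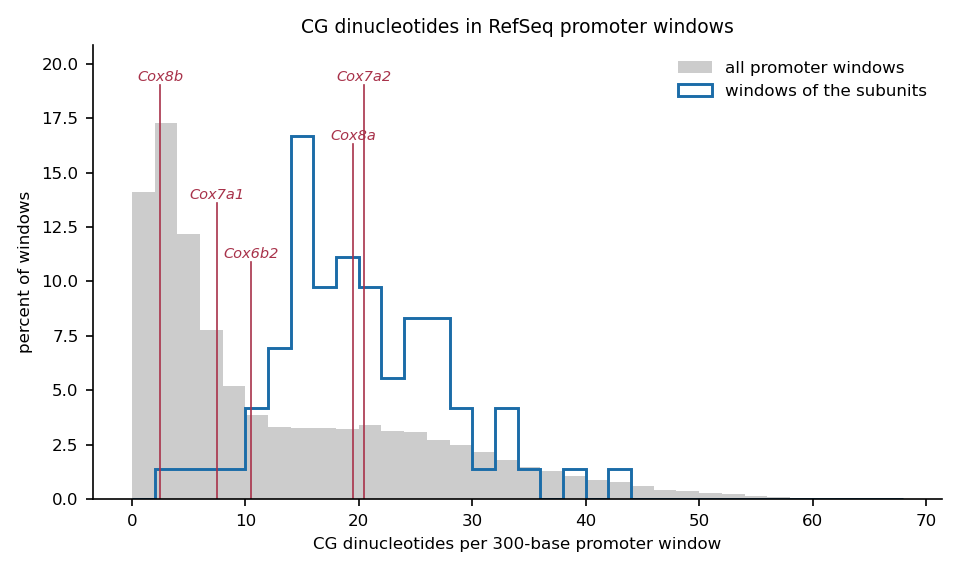
Percent of promoter windows (y axis) by the number of CG dinucleotides in 300 bases (x axis), for all RefSeq windows (grey) and for the 72 windows of the subunits (blue line), with 5 complex IV genes marked in red. Windows of Cox8b (2) and Cox7a1 (7) fall among the CG-poor ones of the subunits, while the median of all windows is 7. Those of Cox8a and Cox7a2 fall near the median of 19 of the subunits.

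Letters of sites known from genes of this pathway were looked for in the same windows on both strands. The core of the site of NRF1, a regulator of respiratory genes, was searched as CATGCGC and was found in 13 of 72 member windows (18.1%), against 3.91% of all windows. The ETS core CCGGAAG, which GABP binds, stood in 16 (22.2%, against 8.86%), and the ERR element TNAAGGTCA in 3 (4.17%, against 1.28%), those of Atp5g3, Ndufb4 and Sdhd. None of these 3 motifs was in the windows of Cox7a1 and Cox8b, while the window of Cox8a held the ETS core. The GATA motif AGATAA stood in the window of Cox7a1 (8.33% of member windows, 11.2% of all) and the letters TATAAA in that of Cox8b (11.1% and 13.6%). The E-box CANNTG was in both, as in 72.3% of all windows. The NRF1 and ETS letters themselves hold a CG dinucleotide, and a match describes the letters of a window, not binding. These shares too were not taken over the windows of tested genes alone.

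Genes around the machinery were read from lists of its assembly factors, partners and expression apparatus. Assembly factors of complexes I (16 tested), II (4), IV (19) and V (3) had 0 called genes, and Sdhaf2, which helps to attach the flavin of Sdha (-0.43 ± 0.10, edgeR adjusted p = 0.032), and Cox19, of copper delivery (0.41 ± 0.09, adjusted p = 0.023), passed the FDR limit alone. Among 6 of complex III, Uqcc2, needed for cytochrome b, was called lower, with 419, 426 and 329.7 normalized counts against 256, 254 and 218 (log2 fold change -0.69 ± 0.13, edgeR adjusted p = 0.016). It no longer passed without any 1 of the DNMT1 siRNA samples (adjusted p = 0.055 to 0.076). Uqcc1, its partner, had 0.38 ± 0.10 (adjusted p = 0.048). These partners passed the FDR limit in opposite directions. Of 18 electron carriers and coenzyme Q genes 1 was called, Coq8a, an atypical kinase of coenzyme Q synthesis, with 72.9, 150.3 and 103 against 468, 388 and 322 (1.86 ± 0.26, adjusted p = 0.0041).

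Of 9 genes of ATP and ADP exchange, Ckmt2, the sarcomeric mitochondrial creatine kinase of heart and skeletal muscle, was called higher. It had 1.17, 8.27 and 3.11 normalized counts against 41.6, 67 and 55.6 (log2 fold change 3.70 ± 0.53, edgeR adjusted p = 0.0047), with no overlap. Slc25a4, the ADP/ATP carrier of heart and muscle, passed the FDR limit with 0.31 ± 0.09 (adjusted p = 0.049). The tricarboxylic acid cycle had 0 called genes of 13 and 2 with an FDR below 0.05, both higher: Ogdh, of the 2-oxoglutarate dehydrogenase complex (0.51 ± 0.07), and Idh3b, of isocitrate dehydrogenase (0.26 ± 0.06), with a median over the list of 0.17. Mitochondrial ribosomal proteins, which translate the mitochondrial members, had 0 called of 76, 3 with an FDR below 0.05 that were lower (Mrpl52, Mrps15 and Mrps9) and a median of -0.13. The 18 tested genes of mitochondrial genome transcription and replication had 0 with an FDR below 0.05 and a median of -0.12. In the mitochondrial lists the calls in the higher direction were thus Coq8a and Ckmt2, and the part of the cardiomyocyte markers in them was not tested.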

How the data were processed

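RNA-Seq of 6 samples (3 per treatment) was used. Per the labels and the study's methods, the authors aligned reads with TopHat2 to mm10 after FastQC and deposited raw counts of reads per gene from HTSeq (the Ensembl annotation of GRCm38 that the methods name). Tool versions and the strand setting are not given in the sources used here. Rows that name no gene held reads outside exons and ambiguous reads, given as percent of these reads and those on genes together. With negative siRNA they held 16.4% ± 1.58 (outside exons) and 3.62% ± 0.034 (ambiguous). With DNMT1 siRNA they held 29.3% ± 4.23 and 6.15% ± 0.175 (SD, n = 3). These rows were left out of library sizes and tests.

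Counts were fitted with edgeR 4.0.16 (R 4.3.3; TMM, quasi-likelihood F test, filterByExpr with a minimum count of 10 and total of 15) over 15470 genes, with Benjamini-Hochberg adjustment and no replicate block, and the members were read from that fit. Normalized counts are counts scaled to the geometric mean of the TMM library sizes. Levels per kb use the longest principal protein-coding transcript (GENCODE M21, GRCm38, 42548 of 43629 gene IDs matched). Shared windows were mapped with bwa 0.7.19. Ratios of isoforms were tested with scipy 1.17.1. Methods were tested on simulated data. Alternatives were other normalizations, DESeq2 1.42.0, edgeR's exact test, filters, thinning, a length offset, a replicate block and leaving out each sample.

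Members and lists were chosen with earlier results of these data known. Named were members called or past the FDR limit, mitochondrial and untested members, isoform pairs, the extremes and the most abundant member of each complex, fixed core subunits (a result on 1 of them is not reported here) and called genes of the lists. Any further gene was chosen after its values were seen.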

Additional observations from a re-analysis of the deposited data

Results flagged for a closer look

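A pair of measures outside the gene counts stood above the level of the control samples. Reads outside any annotated exon were 29.28% ± 4.23 of the reads considered with DNMT1 siRNA and 16.42% ± 1.58 with negative siRNA (SD, n = 3). Reads that fell on more than 1 gene made up 6.154% ± 0.175 and 3.617% ± 0.034. For both measures every DNMT1 siRNA sample was above every negative siRNA sample, from 24.4 to 32.0% against 14.6 to 17.5% and from 6.02 to 6.35% against 3.58 to 3.65%. The members' share of the counts on genes overlapped between the treatments, at 0.437 to 0.544% and 0.473 to 0.546%. Their part in the members' values was not tested.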

How the results depend on the processing

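Over all genes tested, replicate numbers did not pair the samples (correlation of same-numbered deviations 0.0064, -0.021 and 0.027). Most members, however, were lowest in sample 3 of both treatments (69 of 84 with negative siRNA and 62 with DNMT1 siRNA). With a replicate block 1 member was called higher (3.32% of all genes), and Cox7a1 was no longer called (edgeR adjusted p = 0.085). In that fit 2 members had an FDR below 0.05 in the higher (4.49%) and 0 in the lower direction (3.19%). Without a filter on low counts 4 of 85 members were called higher (3.13% of all genes), 1 was called lower (2.21%) and 3 had an FDR below 0.05 in the lower direction (5.48%), and the median over all genes rose to 0.11, against 0.06 for the members. With a length offset 11 of 84 members had an FDR below 0.05 in the higher direction, a share above the 7.43% of all genes. Leaving out each sample in turn gave 0 to 4 members called higher (1.57 to 5.42% of all genes) and 0 called lower each time (0.688 to 3.10%). An FDR below 0.05 was then found for 0 to 13 members in the higher (1.77 to 9.48%) and 0 to 2 in the lower direction (0.873 to 8.15%). The median log2 fold change of the nuclear members stayed between 0.02 and 0.19, and that of the mitochondrial members had no value under any setting.

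Some signs turned. Without negative siRNA sample 3 the log2 fold change was -0.042 for Cox7a2, -0.038 for Cox8a, -0.0021 for Cox4i1, -0.0092 for Cox5a and -0.11 for Uqcr10. Without negative siRNA sample 2 it was 0.85 for Cox4i2 and 1.46 for Ndufa4l2. Without DNMT1 siRNA sample 1 it was -0.021 for Cox4i1, -0.020 for Cox5a and -0.060 for Uqcr10. Uqcr10 also had -0.051 without negative siRNA sample 1, -0.0027 without DNMT1 siRNA sample 2, -0.026 without a filter and -0.0027 with short non-coding and ribosomal genes left out, and Atp5l had 0.062 without DNMT1 siRNA sample 2. The difference in log2 ratio ran from -0.89 to 0.49 for Cox4i2 against Cox4i1 (0.49 without negative siRNA sample 2 and 0.15 without DNMT1 siRNA sample 2) and from -1.59 to 1.74 for Ndufa4l2 against Ndufa4 (1.74 without negative siRNA sample 2 and 0.080 without DNMT1 siRNA sample 1). Over the runs with 1 sample left out, values reached 0.26 for Cox7a2, 0.12 for Cox8a, 0.18 for Cox4i1, -1.17 for Cox4i2, -2.95 for Ndufa4l2, 0.12 for Cox5a, 0.20 for Uqcr10 and -0.63 for Atp5l. Among counts, medians and ratios under the alternatives, 24 values moved, 4 turned sign and 105 did neither. The cause of the changes was not tested.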

Other observations

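Regulators of mitochondrial gene expression that are no subunits were read after their values were seen. Ppargc1a, a coactivator of genes of oxidative metabolism, had 61.3, 110.3 and 56.0 normalized counts with negative siRNA and 155.5, 173.5 and 157.0 with DNMT1 siRNA, a rise of 1.09 ± 0.26 on the log2 scale (edgeR adjusted p = 0.032). Its relative Ppargc1b had 116.1, 148.2 and 108.1 against 238.7, 223.0 and 188.1 (0.80 ± 0.17, edgeR adjusted p = 0.020). Esrrg, an estrogen-related receptor of the heart, had 50.2, 60.7 and 40.4 against 119.3, 126.8 and 109.6 (1.23 ± 0.20, edgeR adjusted p = 0.0075). All 3 were higher in each DNMT1 siRNA sample than in each negative siRNA sample. Esrra, a receptor of the same family, had 652.4, 849.3 and 869.4 against 868.9, 886.2 and 816.1 (0.12 ± 0.12, edgeR adjusted p = 0.54), with overlapping groups.

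Short transcripts are common among the subunits, with a median length of 849 bases against 2876 over all genes tested. The 50 tested members of up to 1000 bases had a median log2 fold change of 0.09, against -0.05 over 1596 genes of that length. Processed pseudogenes of subunits were in the count files too, 11 in all, and the highest of them, Cox6c2, had 235.8, 250.9 and 162.5 normalized counts with negative siRNA and 262.8, 233.2 and 220.8 with DNMT1 siRNA.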
